A study of Homo sapiens with 8 samples.

Results

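The genes described here are those that handle thyroid hormone inside a cell: DIO2, DIO3, THRA, THRB and SLC16A10, 5 of the 16796 genes counted. They were taken by symbol from the count of each library. DIO2 was put forward because of its measured fall in the same comparison, OGTi against Control, so its values and those of its companions in that comparison were selected on these libraries and are given as a description, with no test. The libraries came from LX-2, an immortalised human hepatic stellate cell line grown in DMEM with 5% fetal bovine serum. Stellate cells store retinoids in the healthy liver and turn into matrix-producing myofibroblasts in fibrosis. Control cells received the DMSO vehicle. OGTi cells received 50 µM OSMI-1, a small-molecule inhibitor of O-GlcNAc transferase, the enzyme that attaches N-acetylglucosamine to serine and threonine residues of nuclear and cytosolic proteins, for 24 h. Each group had 4 libraries of poly(A)-selected RNA from biological replicates numbered 1 to 4. All 8 libraries carried the same line and differed by label only in treatment and replicate, so the values describe 1 cell line at 1 dose and 1 time.

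Thyroxine, the main product of the thyroid, is a prohormone. Cells take up thyroid hormones through membrane transporters, MCT10 (SLC16A10) among them. The outer-ring deiodinases type 1 (DIO1) and type 2 (DIO2) convert thyroxine to triiodothyronine, the active form. The type 3 deiodinase (DIO3) removes an inner-ring iodine and inactivates both. Triiodothyronine then binds the nuclear receptors THRA and THRB, which sit on DNA mostly as heterodimers with retinoid X receptors and exchange corepressors for coactivators. The deiodinases are selenoproteins, and DIO2 protein is short-lived because it is ubiquitinated once it meets its substrate. Serum in the medium is a source of thyroid hormones. Hormone levels and deiodinase activity were not analysed here, and every value below is a transcript count.

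DIO2 (ENSG00000211448) lies on the minus strand of chr14:80197526-80387757 (GRCh38). The proximal promoter of this gene is known as a target of cAMP signalling through a cAMP response element, and its letters are printed because DIO2 carried the largest difference among the 5 genes. RefSeq gives 2 start sites of DIO2, both inside that span. The window upstream of the span's upper end, at 80387757, was not searched. Counts per gene do not show which start was used. The sequence printed is the 250 bases upstream of the start at 80212178, chr14:80212179-80212428 in GRCh38.p14, minus strand. Of the 2 windows it is the one that held matches to the motifs searched, and it is printed for that reason. Capitals mark 3 motifs found by letter search: the palindromic cAMP response element TGACGTCA, 96 bases upstream of the start, the TEAD-type motif GGAATG, 37 bases upstream, and the TATA motif TATAAA, 31 bases upstream, which follows the TEAD-type motif with no base between.
DIO2 promoter: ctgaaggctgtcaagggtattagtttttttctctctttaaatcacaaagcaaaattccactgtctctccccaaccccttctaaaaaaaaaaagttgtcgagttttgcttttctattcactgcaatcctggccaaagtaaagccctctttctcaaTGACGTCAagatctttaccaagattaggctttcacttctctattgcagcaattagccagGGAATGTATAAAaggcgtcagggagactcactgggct
Searched on both strands, TGACGTCA was present in 1.65% of 35116 promoter windows of this length, GGAATG in 11.9% and TATAAA in 10.7%. The AP-1 motif TGACTCA (4.2% of windows) and the nuclear receptor half-site AGGTCA (12.1% of windows) had no match in this DIO2 window. The window upstream of the other DIO2 start, at 80211504, had no match to any of the 5 motifs. Windows of THRA, THRB, SLC16A10 and DIO3 had no match to the cAMP response element, the AP-1 motif, the TEAD-type motif or the half-site. TATAAA occurred 32 bases upstream of the DIO3 start and in 1 of the THRB windows, 182 bases upstream. These matches describe letters and not bound sites.

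DIO2 was an abundantly counted transcript in Control and a sparse one in OGTi. Raw counts in Control replicates 1 to 4 were 4443, 4564, 4192 and 3000. In OGTi they were 41, 102, 60 and 46, so the lowest Control library stood far above the highest OGTi library. After scaling for library size, the normalized counts were 4328, 4287, 4817 and 3120 in Control (4138 ± 720, SD, n = 4) and 37.5, 102, 57.7 and 46.1 in OGTi (60.9 ± 28.9, SD, n = 4). What remained in OGTi was 1.47% of the Control mean, a level 71.7-fold lower. Within the replicate pairs the Control library was 116-fold above the OGTi library in pair 1, 41.8-fold in pair 2, 83.5-fold in pair 3 and 67.7-fold in pair 4. The log2 fold change (log2 FC) from DESeq2 was -6.16 ± 0.31 (SE). Leaving out 1 pair at a time moved it between -5.94 (without pair 1) and -6.44 (without pair 2). Because the RNA came from whole cultures, fewer cells that transcribe DIO2 and less DIO2 RNA per cell cannot be told apart.

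The residual DIO2 reads in OGTi were above zero in every library. Exact Poisson 95% intervals were 29.4 to 55.6 for the 41 counts of replicate 1, 83.2 to 124 for the 102 counts of replicate 2, 45.8 to 77.2 for the 60 counts of replicate 3 and 33.7 to 61.4 for the 46 counts of replicate 4. Replicate 2 lay above the other OGTi libraries, with an interval that did not overlap theirs. These intervals cover counting error only, since reads without molecular identifiers are not independent molecules. The coefficient of variation of normalized counts was 17.4% in Control and 47.4% in OGTi, so the remnant varied more between replicates, in proportion, than the full level. Among the 5840 genes called at a mean of at least 100 normalized counts, DIO2 had the lowest log2 FC, followed by NPPB (-5.79) and MSTN (-4.06). The order of DIO2 and NPPB turned without replicate 2 (-6.44 and -6.69) and without replicate 3 (-6.10 and -6.44). Over all 14028 genes with an adjusted p, EGF, at a mean of 26.8 normalized counts and listed at 0 in 3 OGTi libraries, was the one gene with a lower fitted value (-6.23).

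**Figure D1:**
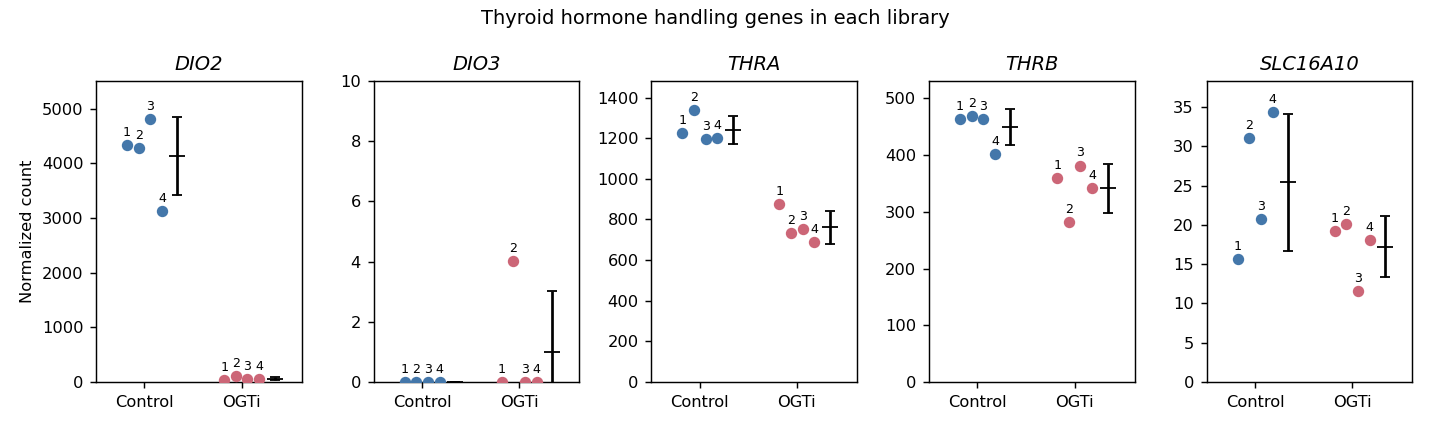
Normalized counts of the 5 genes in each library, with a separate linear axis from 0 for each gene. Points are libraries with their replicate number, and the line beside them is the mean ± SD of 4 libraries. DIO2 fell from 3120 to 4817 in Control to 37.5 to 102 in OGTi, THRA and THRB were lower in OGTi without overlap, SLC16A10 overlapped, and DIO3 had reads in 1 OGTi library.

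DIO3 (ENSG00000197406, chr14:101560139-101563452, plus strand), the inactivating deiodinase, was close to undetected. It had 0 counts in all 4 Control libraries and in OGTi replicates 1, 3 and 4. OGTi replicate 2 had 4 counts, with an exact Poisson 95% interval of 1.09 to 10.2. A count of 0 was taken to allow up to 3 counts, a one-sided limit slightly under the 3.69 of the two-sided exact Poisson interval, and at these depths 3 counts are 0.106 to 0.124 CPM (counts scaled to a common library total). DIO3 therefore did not pass the count filter and no fold change is given. The library with DIO3 reads was also the OGTi library with the most DIO2 reads, and both observations rest on 1 sample. DIO1, the other outer-ring deiodinase, was likewise at 0 in 7 libraries and at 3.85 normalized counts in OGTi replicate 3, so reads of deiodinase transcripts in Control were DIO2 reads throughout.

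The receptor genes moved less. THRA (ENSG00000126351, chr17:40058290-40093867, plus strand), the gene of thyroid hormone receptor alpha, had normalized counts of 1227, 1339, 1194 and 1199 in Control (1240 ± 67.6, SD, n = 4). In OGTi they were 875, 731, 752 and 687 (761 ± 80.7, SD, n = 4). The groups did not overlap, and every pair was lower in OGTi, by log2 values of -0.49, -0.87, -0.67 and -0.80 in pairs 1 to 4. The log2 FC was -0.71 ± 0.10 (SE), which leaves 61.4% of the Control mean. THRA shares 473 exonic bases with NR1D1 on the opposite strand. NR1D1, the circadian repressor REV-ERB alpha, went from 1420 ± 284 to 1770 ± 354 normalized counts (SD, n = 4), a log2 FC of 0.32 ± 0.09 (SE) with overlapping groups and a DESeq2 adjusted p of 0.0021. The NR1D1 call was lost without the replicate block and without replicate 3. Counting was strand-aware, and the part of shared bases in either count was not tested.

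THRB (ENSG00000151090, chr3:24117153-24495756, minus strand), the gene of receptor beta, was counted at 464, 470, 463 and 403 normalized counts in Control (450 ± 31.6, SD, n = 4). OGTi had 359, 282, 382 and 342 (341 ± 42.6, SD, n = 4). The highest OGTi library, replicate 3, was below the lowest Control library, replicate 4, by a narrow margin. Pair differences were -0.37, -0.73, -0.28 and -0.24 on the log2 scale, with pair 2 the widest. The log2 FC was -0.40 ± 0.14 (SE), and without pair 2 it was -0.29 and no longer called.

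SLC16A10 (ENSG00000112394, chr6:111087503-111231194, plus strand) encodes MCT10, a transporter of aromatic amino acids and thyroid hormones. It was a low-count gene, with raw counts of 16, 33, 18 and 33 in Control and 21, 20, 12 and 18 in OGTi. Normalized counts were 25.4 ± 8.75 in Control and 17.2 ± 3.88 in OGTi (SD, n = 4). The groups overlapped, pair 1 was higher in OGTi (0.30 on the log2 scale), and pairs 2 to 4 were lower (-0.63, -0.84 and -0.93). The log2 FC of -0.53 ± 0.50 (SE) was about as large as its error and became -0.80 without replicate 1, and the gene was not called under any of the 10 alternative settings tried. At this depth a change of that size could not be separated from replicate spread.

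In all, 3 of the 4 genes with an adjusted p (DIO2, THRA and THRB) were called lower in OGTi, and the same 3 had groups that did not overlap. Across all 14028 genes with an adjusted p, 46.6% were called in either direction, 24.0% lower and 22.7% higher. Groups did not overlap for 20.2% of genes in the lower direction and 19.8% in the higher direction. Since this comparison put DIO2 forward, nothing is read from the members' count against those shares. Calls were that common, with a median absolute log2 FC of 0.52 among called genes, and the THRB value was smaller than that median.

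**Figure D2:**
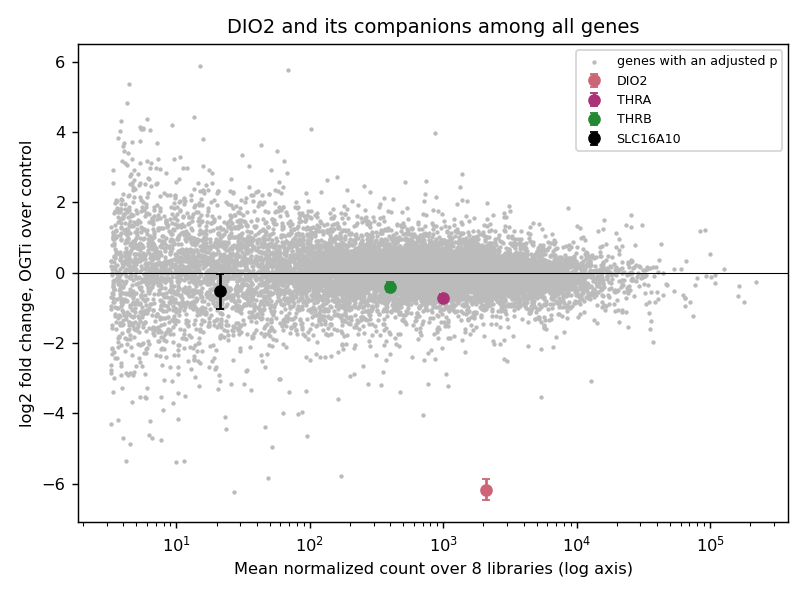
Each point is a gene with an adjusted p, plotted as log2 fold change of OGTi over Control against its mean normalized count over 8 libraries on a log axis. Coloured points are members, with bars of ± SE. DIO2 lies at -6.16, apart from other genes of like abundance, while THRA (-0.71), THRB (-0.40) and SLC16A10 (-0.53) lie inside the cloud.

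Compared per length, as normalized counts per kilobase of the canonical transcript, the order of the members changed between the groups. In Control the mean levels were 688 ± 120 for DIO2, 238 ± 13.0 for THRA, 59.4 ± 4.18 for THRB and 2.36 ± 0.81 for SLC16A10 per kilobase (SD, n = 4), and DIO3 was at 0. The ranges of neighbours in this order did not overlap. DIO2 ranked 2880th of 16245 genes with a length in Control and 12014th in OGTi. In OGTi the order was THRA at 146 ± 15.5, THRB at 45.0 ± 5.62, DIO2 at 10.1 ± 4.80 and SLC16A10 at 1.60 ± 0.36 per kilobase. DIO2 still lay above SLC16A10 there without overlap, with a lowest library of 6.23 against a highest SLC16A10 library of 1.87. SLC16A10 and DIO3 could not be ordered in OGTi, because the DIO3 range of 0 to 2.05 enclosed that of SLC16A10. The level of DIO2 over THRA was 2.89 ± 0.52 in Control and 0.0706 ± 0.036 in OGTi. THRA over THRB was 4.02 ± 0.27 in Control and 3.28 ± 0.45 in OGTi, with overlapping ranges.

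**Figure D3:**
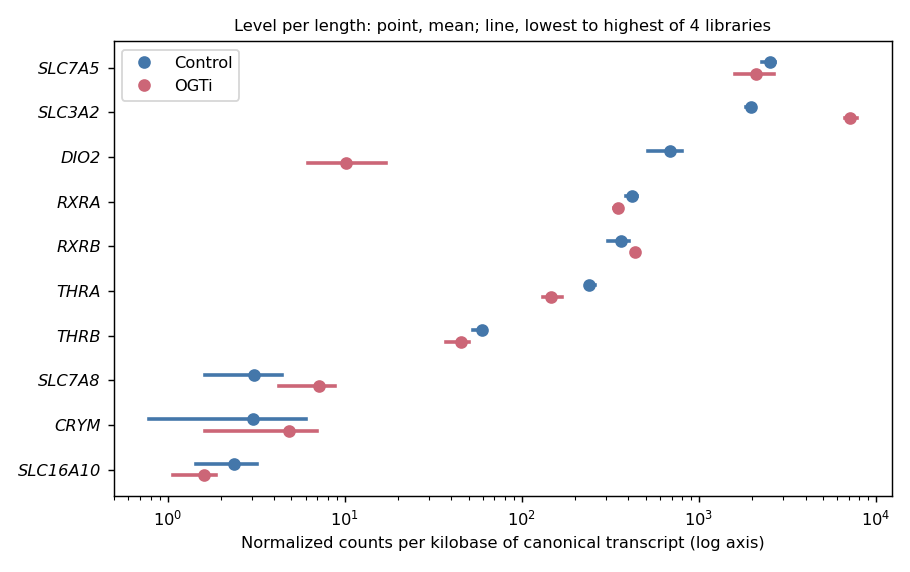
Levels per kilobase of canonical transcript on a log axis for members and related genes, ordered by Control level. Points are means and lines run from the lowest to the highest of 4 libraries. DIO2 dropped from 688 to 10.1 while THRA and THRB kept their order, and SLC16A10 was at 2.36 and 1.60. DIO3 and DIO1, at 0 in Control, are not drawn.

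The transporter list split in direction. Of its 5 genes with an adjusted p, SLC16A10 not among them, 3 rose and 2 fell, with a median log2 FC of 0.53 against 0.0048 over all genes. SLC3A2, the heavy chain shared by the amino acid exchangers LAT1 and LAT2, went from 3733 ± 207 to 13402 ± 857 normalized counts (SD, n = 4), a log2 FC of 1.84 ± 0.07 (SE, DESeq2 adjusted p = 3.76e-167), with no overlap of the groups. Of its light chains, SLC7A5 fell (log2 FC -0.28 ± 0.08, a call lost with no replicate block and without replicate 4). SLC7A8, counted at 13.0 and 30.4 in the group means, rose (1.23 ± 0.53, DESeq2 adjusted p = 0.045). The SLC7A8 groups overlapped, 1 pair was lower in OGTi, and the alternative settings were not followed for this gene. SLCO1A2, an organic anion transporter that accepts thyroxine, fell from 61.7 ± 15.6 to 24.3 ± 2.46 normalized counts, a log2 FC of -1.32 ± 0.36. SLCO4A1 rose by a log2 FC of 0.53 ± 0.13, although its groups overlapped and OGTi replicate 1, at 1380, was the highest library.

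Intracellular binding and hormone metabolism gave few countable genes. Only 5 of the 11 listed genes were counted and 3 had an adjusted p, of which SULT1A1, a phenol sulfotransferase that acts on iodothyronines, rose from 242 to 336 normalized counts (log2 FC 0.48 ± 0.15, SE). Its groups overlapped, and the call was lost without replicate 4 (0.43). CRYM, which binds triiodothyronine in the cytosol, had mean counts of 3.76 and 6.0 and was not called (log2 FC 0.81 ± 1.07). That value was 0.19 without replicate 1 and 1.65 without replicate 2. SULT1A3, with 64.7 ± 125 normalized counts in Control and 0 in OGTi, was not called either. Its Control libraries 1 to 4 were at 252, 6.58, 0 and 0, so that mean rests on replicate 1. SULT1A genes share long near-identical stretches, so their counts are uncertain.

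Partners of the receptors were mostly countable and split in direction. Of 15 retinoid X receptor and coregulator genes with an adjusted p, 3 rose, 6 fell and 6 were not called, with a median log2 FC of -0.13. The 4 clearest calls were in components of the corepressor and Mediator complexes. TBL1XR1, a subunit of the NCOR and SMRT corepressor complex, fell from 998 to 498 normalized counts (log2 FC -1.0 ± 0.10), and its relative TBL1X fell by 0.71 ± 0.08 on the log2 scale. GPS2, another subunit of that complex, rose from 3897 to 6762 (0.80 ± 0.08). MED24, a Mediator subunit encoded beside THRA, had a log2 FC of -0.58 ± 0.08. The retinoid X receptors themselves moved little and in opposite directions, with a log2 FC of -0.26 for RXRA and 0.26 for RXRB.

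Genes needed to make and to remove DIO2 protein changed by less than a log2 unit. For selenoprotein synthesis, 3 of 8 genes rose and 3 fell. SCLY, which releases selenium from selenocysteine, had a log2 FC of 0.59 ± 0.10, SEPHS2, the selenophosphate synthetase, 0.53 ± 0.10, and EEFSEC, the selenocysteine elongation factor, 0.26 ± 0.10. TRNAU1AP, a protein bound to the selenocysteine tRNA, was lower (-0.33 ± 0.13). The EEFSEC call was lost without replicate 2 (0.22) or 3 (0.21), and the TRNAU1AP call without replicate 1 (-0.31), 3 (-0.30) or 4 (-0.30). For turnover of DIO2 protein, 2 of 10 genes rose and 4 fell. USP20, a deubiquitinase that acts on DIO2, rose from 1214 to 1905 normalized counts (0.65 ± 0.08), and WSB1, the adaptor that brings DIO2 to its ubiquitin ligase, rose by 0.38 ± 0.10. RBX1 and CUL5, core subunits of that ligase, had log2 FC of -0.79 ± 0.14 and -0.37 ± 0.12. The groups of CUL5 overlapped, and its call was lost without replicate 2 (-0.29) or 3 (-0.27).

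Of the 16 other selenoprotein genes with an adjusted p, 8 rose, 3 fell and 5 were not called. Their median log2 FC was 0.15, and none of them approached the DIO2 value. The lowest was that of TXNRD2, the mitochondrial thioredoxin reductase, at -1.05 ± 0.11, followed by SELENON (-0.56 ± 0.06), a protein of the endoplasmic reticulum, and the cytosolic reductase TXNRD1 (-0.41 ± 0.08). The highest was that of TXNRD3, another thioredoxin reductase, at 1.02 ± 0.27, from 59.1 to 119 normalized counts without overlap of the groups. The alternative settings were not followed for TXNRD3. SELENOM rose by 0.48 ± 0.11. The TXNRD1 call was lost with no replicate block (-0.38) and the SELENOM call without replicate 1 (0.49).

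Among genes known to respond to thyroid hormone in some tissues, 4 of the 8 with an adjusted p fell, 1 rose and 3 were not called, with a median log2 FC of -0.34. KLF9, a transcription factor gene induced by triiodothyronine and by glucocorticoids, had 505, 660, 706 and 475 normalized counts in Control and 123, 135, 145 and 205 in OGTi. The groups were well separated and the log2 FC was -1.95 ± 0.18 (SE, DESeq2 adjusted p = 1.08e-26). HR, a corepressor gene that the receptors activate in brain and skin, fell from 143 ± 73.3 to 41.0 ± 20.9 normalized counts (log2 FC -1.81 ± 0.26), with Control replicate 1 at 252 far above the other Control libraries. BCL3 fell from 329 to 118 (-1.47 ± 0.16). ME1, malic enzyme, a classical hormone-induced gene in liver, went the other way, from 559 to 891 (0.66 ± 0.11). Other inputs than thyroid hormone also act on each of these genes.

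Transcription factors known to act on deiodinase genes gave 5 falls, 1 rise and 7 genes not called of 13 with an adjusted p (median log2 FC -0.17). NKX2-1, which activates human DIO2 in the thyroid, fell from 208 ± 119 to 58.4 ± 14.1 normalized counts (-1.73 ± 0.23). GLI2, a Hedgehog effector, fell from 2152 to 1217 (-0.83 ± 0.09). SMAD3 and SMAD2, the TGF-beta effectors, had log2 FC of -0.56 ± 0.08 and -0.46 ± 0.09. CREB1, a factor known to bind cAMP response elements, was not called, at -0.17 ± 0.11 (DESeq2 adjusted p = 0.180). Its binding to the element printed above and its protein activity were not tested. Over the 8 lists, each gene taken once, 22 of 78 genes rose and 27 fell. Over all genes with an adjusted p, 46.6% were called, 22.7% higher and 24.0% lower. The lists were chosen with earlier results of these data known. Nothing is therefore read from the calls of any list, or of all lists, against those shares.

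**Figure D4:**
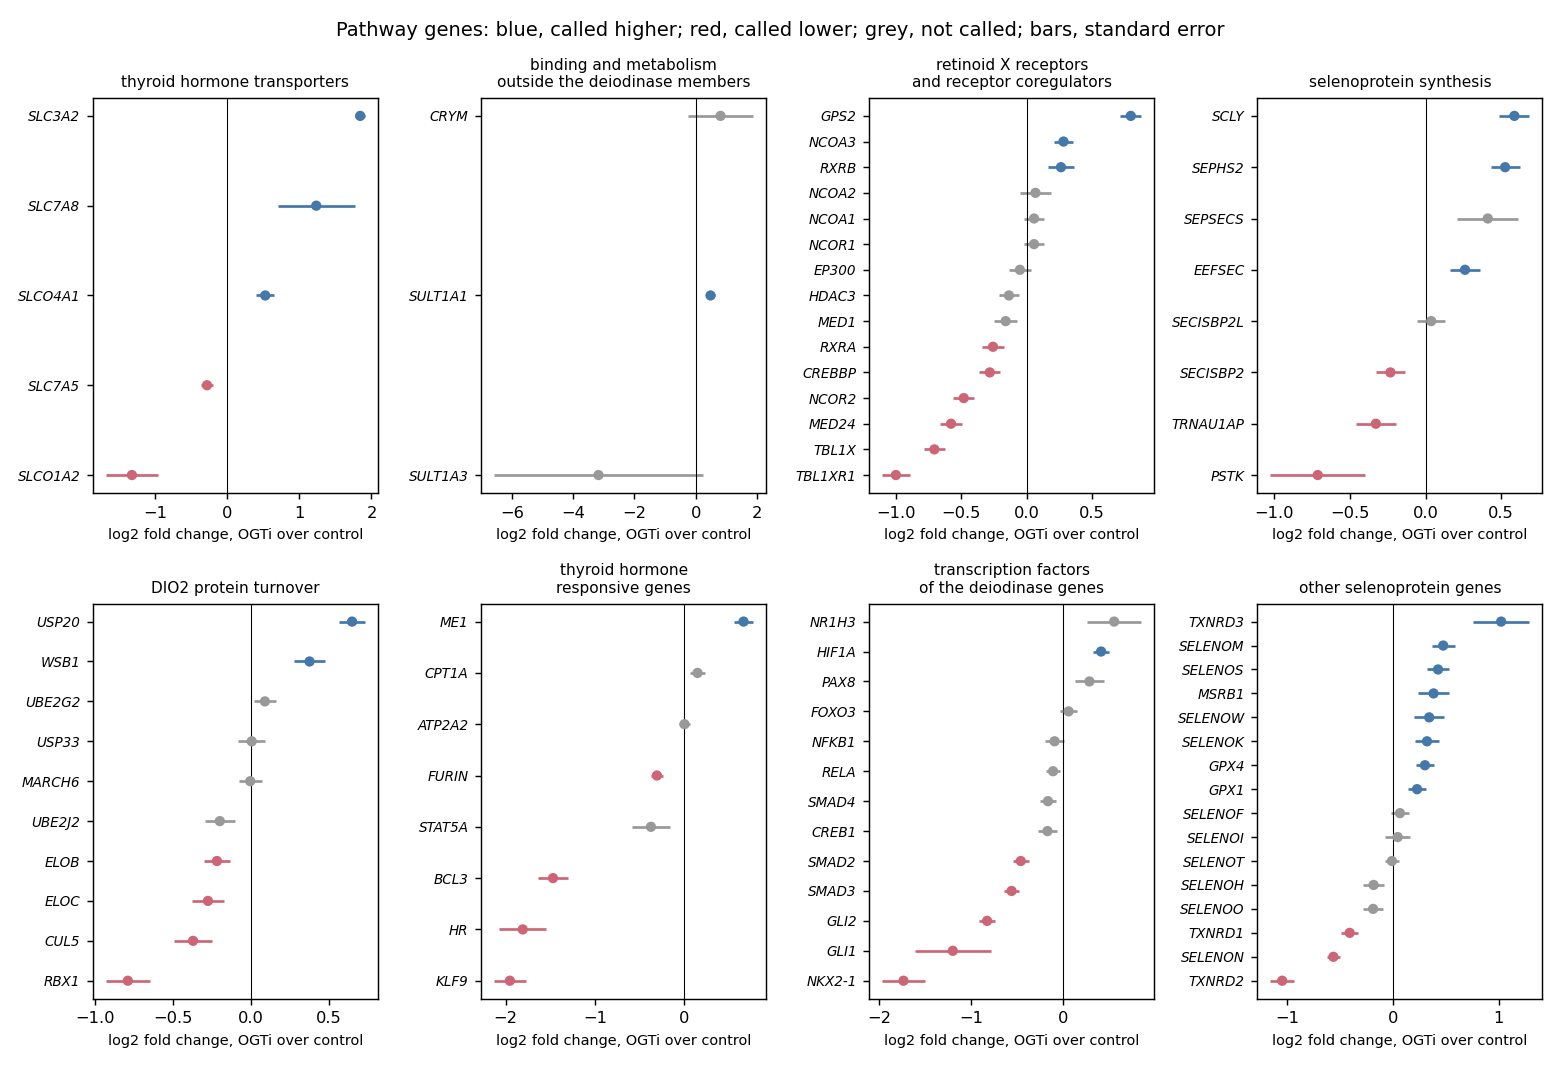
Log2 fold changes of OGTi over Control with SE bars for the genes of 8 pathway lists that had an adjusted p, one panel a list and each panel with its own axis. Blue points were called higher, red points lower and grey points were not called. SLC3A2 (1.84) had the highest value among transporters, and KLF9 (-1.95) the lowest among hormone-responsive genes.

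The genes on either side of DIO2 did not share its size of change. NRXN3, a synaptic adhesion gene that ends 329 kb away at chr14:78170373-79868291, fell from 1622 ± 97.8 to 1175 ± 35.8 normalized counts (log2 FC -0.46 ± 0.09, SE). CEP128, a centriole gene 89.2 kb away on the other side at chr14:80476983-80959517, was not called (0.11 ± 0.13, and 0.028 to 0.18 with 1 replicate left out). Distances are between annotated gene spans, and not from the promoter printed above. The fall of NRXN3 was small beside the DIO2 value of -6.16. On the higher-coordinate side of DIO3, PPP2R5C, 198 kb away, had a log2 FC of -0.29 ± 0.08. DYNC1H1, 401 kb away on that side, had one of 0.74 ± 0.19. Counts of genes at these distances do not describe read coverage at DIO3 itself. Within 500 kb of THRA, 5 genes were called higher, 6 lower and 10 not called, and 2 more had no adjusted p. Around THRB the calls were 1 higher and 1 lower of 5, and around SLC16A10 2 higher and 1 lower of 8. Over all genes 22.7% were called higher and 24.0% lower, and nothing particular to these neighbourhoods is read from the counts.

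The 6 genes whose profile over the 8 libraries lay closest to that of DIO2 were NPPB, MSTN, TGFB2, RTL3, EDN1 and ADAMTS5. Closeness was the root mean square difference of log2(normalized count + 1), each gene centred on its own mean, among 10993 genes with a mean of at least 100. Because DIO2 steps so far between the groups, this distance mostly follows the size of a gene's fall. That fall is also what put DIO2 forward, and NPPB and MSTN come next after DIO2 in log2 FC. No likeness beyond the size of the fall is read from the list. The distances ran from 1.03 for NPPB and 1.13 for MSTN to 1.52 for ADAMTS5, and Pearson r over 8 libraries from 0.946 to 0.996. Such correlations were common, with 669 genes above 0.95, and all of these points share the same 2 groups. NPPB, the B-type natriuretic peptide, had 313, 370, 399 and 238 normalized counts in Control and 0, 28.1, 14.4 and 3.01 in OGTi. Its highest OGTi library was replicate 2, as for DIO2, TGFB2 and EDN1. MSTN, myostatin, a muscle growth inhibitor of the TGF-beta superfamily, went from 1320 ± 368 to 83.4 ± 34.5 (log2 FC -4.06 ± 0.31). TGFB2, a TGF-beta ligand, fell from 9884 ± 1895 to 863 ± 223 and EDN1, endothelin 1, from 861 ± 146 to 82.2 ± 20.7. ADAMTS5, an aggrecan-cleaving protease, fell from 1945 ± 311 to 206 ± 11.9, and its OGTi libraries were nearly level where those of DIO2 spread.

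**Figure D5:**
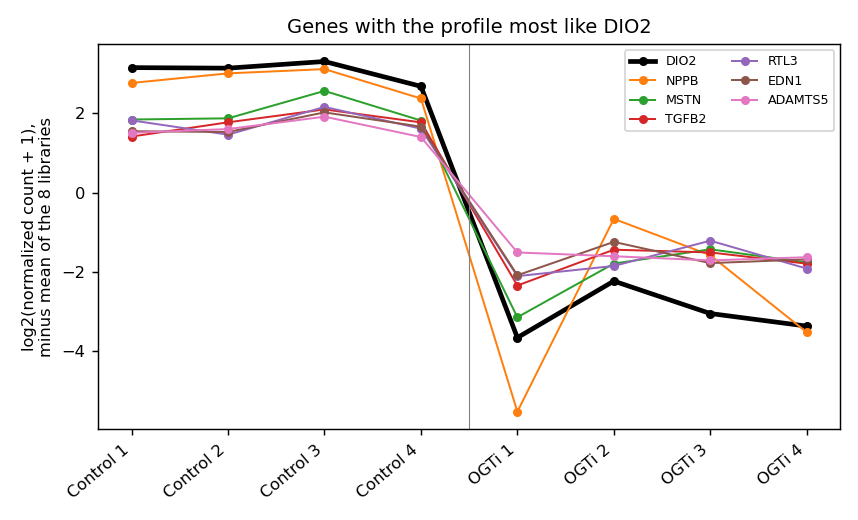
Log2(normalized count + 1) minus each gene's mean over 8 libraries, by library, for DIO2 and the 6 genes closest to it. All 7 lines step down between the groups, DIO2 by the most in 3 of 4 pairs, and NPPB runs lower than DIO2 in OGTi replicates 1 and 4.

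Total counts ran from 24166756 to 28201215 per library. All 15 stellate and myofibroblast marker genes were counted, 7 of them at mean normalized counts under 10, DES, LRAT and GFAP included, and their summed level was 212992 to 240955 normalized counts in Control and 161914 to 192256 in OGTi, with 6 genes called lower and 1 higher. VIM (95086 and 89632 in the Control and OGTi means) and COL1A1 (84778 and 43931) were the largest parts of that sum. Of the summed markers of other cells, endothelial and macrophage sums did not overlap between the groups, while bile duct and hepatocyte sums did. Those of endothelium, 4 of 4 counted, were 49.7 to 91.1 in Control and 17.0 to 33.8 in OGTi, with PECAM1 and KDR under 10. Only CDH5 was called among them, with means of 37.3 in Control and 3.86 in OGTi. Bile duct markers, 2 of 4 counted, were at 68.6 to 141 and 35.2 to 77.1, nearly all KRT7, with KRT19 under 10. Hepatocyte markers, 2 of 6 counted, were at 19.5 to 74.0 and 26.0 to 74.0, with APOA1 under 10. The macrophage sum over 4 of 4 genes, 2482 to 4089 in Control and 5610 to 9391 in OGTi, was nearly all CD68, a lysosomal gene, with PTPRC and CSF1R under 10. The part of these shifts in the DIO2 result was not tested.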

How the data were processed

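Poly(A)-selected, stranded RNA-seq libraries were made from 4 vehicle-treated and 4 OSMI-1-treated LX-2 cultures. The authors mapped reads to hg38 with Bowtie2 2.3.5.1 and estimated expected counts per gene with RSEM 1.3.1, and the deposited values are those expected counts, unnormalized, with a fractional part in 12.9% to 16.3% of genes per library. A table of the authors' own comparison (mean, log2 fold change, SE, Wald statistic, p and adjusted p) was not used, nor was DESeq2 1.36.0, the version the submitters named. Here the expected counts were rounded and fitted with DESeq2 1.42.0 in R 4.3.3 (Wald test, replicate number as a block, genes with at least 10 counts in total, Benjamini-Hochberg adjusted p of at most 0.05, fold changes not shrunk). Of 16796 genes, 14895 passed the filter and 14028 received an adjusted p. The script was tested on simulated data.

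The replicates were independent experiments according to the study's methods. Pairing followed those methods, which match treated and control cultures by replicate. As a check, same-numbered libraries deviated together (r = 0.379, 0.303, 0.138 and 0.269 over 11702 genes for numbers 1 to 4), all over 0.1. However, Control 3 with OGTi 4 (0.272) and Control 4 with OGTi 3 (0.201) were as high or higher than some of them. Alternatives were fits with no replicate block, edgeR 4.0.16 quasi-likelihood with and with no block, TMM size factors, no count filter, a total of at least 80 counts, each replicate pair left out, and, for levels, the union of exons as length and TMM factors.

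Positions and lengths came from GENCODE 44, in which 16245 symbols matched directly or through RefSeq synonyms. In the files, 41 symbols were bare numbers. The promoter sequence is from RefSeq (GRCh38.p14). Pathway lists, members and markers were chosen with earlier results of these data known. Named by rule were the members, DIO1, CRYM, KLF9, up to 4 called genes of each list with the largest absolute Wald statistic, flanking genes, NR1D1, and the 6 genes closest to DIO2. Other names complete small counts or show the other direction within a list, and were added after their values were seen. An item withheld for evaluation is not reported here and was left out of the list counts.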

Additional observations from a re-analysis of the deposited data

Results flagged for a closer look

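In 8 of 90 groups of 4 libraries among the named genes, 1 library stood apart, with a gap to its nearest neighbour, as a share of the group's range, above Dixon's 95% critical value. Chance alone gives about 4.5 such groups. For THRB, Control replicate 4 had 403 normalized counts against 463 to 470 in the others, and the same library was the lowest of NRXN3, at 1477 against 1650 to 1682. It was also the lowest Control library of DIO2. Control replicate 1 was high for 3 pathway genes. HR was at 252 there against 96.7 to 115, NKX2-1 at 386 against 140 to 156 and RBX1 at 567 against 460 to 477. For MSTN, Control replicate 3 had 1872 against 1115 to 1158. In OGTi, replicate 2 was low for SMAD3, at 2917 against 3186 to 3241, and replicate 4 low for CEP128, at 406 against 473 to 483.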

How the results depend on the processing

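The DIO2 log2 FC ran from -5.94 to -6.44 over the 10 alternatives. THRB was not called without replicate 2 (-0.29). Same-numbered libraries were paired by a block. With no replicate block, 3100 genes were called higher and 3207 lower, against 3181 and 3360, the DIO2 log2 FC was -6.09, and pathway calls were 21 higher and 24 lower, against 22 and 27. The block changed the calls of TXNRD1 (-0.38 with no block), SLC7A5 (-0.26 with no block) and NR1D1 (0.32 with no block), which were lost in DESeq2 and in edgeR alike. Of the 41 named genes other than the members, 33 kept direction and call in every alternative that gave a value. CRYM gave none with a total of at least 80 counts or without replicate 4. SLC7A5, SULT1A1, EEFSEC, TRNAU1AP, CUL5, SELENOM and NR1D1 lost theirs when 1 replicate was left out, and the cause was not tested. No direction reversed. With the union of exons as length, which is longer by construction, the Control level per kilobase was 560 for DIO2, 169 for THRA and 41.0 for THRB, and the OGTi level was 104 for THRA and 31.1 for THRB, with the same order of genes. Counts per library limit SLC16A10, DIO3 and DIO1.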

Other observations

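Transcription factors of the thyroid follicular lineage were counted in these stellate-derived cells. FOXE1 had normalized counts of 488, 514, 552 and 452 in Control and 319, 430, 323 and 242 in OGTi, a log2 FC of -0.63 ± 0.14 (SE, DESeq2 adjusted p = 3.32e-05), lower in 4 of 4 pairs. PAX8 had 221 ± 36.8 in Control and 268 ± 28.6 in OGTi (SD, n = 4) and was not called (0.28 ± 0.16, DESeq2 adjusted p = 0.13). The 4 counted genes of the 6 listed summed to 700 to 750 in Control and 545 to 666 in OGTi. The thyroid product genes of the same marker list were near 0, with means of 0.244 and 1.5 for TG and 1.20 and 2.20 for SLC5A5. The list was chosen with earlier results known.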
